A study of Mus musculus with 6 samples.

Results

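Integrins and laminins are the receptors and the matrix proteins through which cells hold on to a basement membrane. They were followed in TM3 cells, a line derived from mouse testicular Leydig cells, after exposure to 4-nitrophenol (PNP, nPNP in the labels), a nitrated phenol formed when parathion breaks down. The members are the protein-coding genes whose symbols begin with Itga or Itgb, or are Lama, Lamb or Lamc with a number, without binding-protein names, and there were 39 of them among 23462 genes named on the array. They comprised 28 integrin genes and 11 laminin chain genes, read by 61 probes, and all 39 had a probe.

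PNP cells received 10 µM nPNP for 24 h, with 3 samples, and control cells received 0 µM, also with 3 samples. Both groups were the same male line, which the labels call a testicular somatic cell line, and no allele or second agent is named. A single immortalised line stands here for Leydig cells. Total RNA of each sample was read on its own 1-colour Agilent array, and the comparison asks which genes differ in expression between PNP and control cells. Nothing in the labels tells whether separate cultures were used within a group, so p-values reflect only how far these samples spread, which may be technical.

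Integrins are heterodimers of an α chain and a β chain that span the cell membrane, bind matrix or other cells outside, and tie to the actin cytoskeleton inside. The pairing sets the ligand: α1, α2, α10 and α11 with β1 bind collagens, α3, α6 and α7 bind laminins, α5β1 and the αv pairs bind fibronectin and vitronectin, and the β2 and β7 families belong to white blood cells. Laminins are cross-shaped trimers of an α, a β and a γ chain and are the proteins on which basement membranes assemble. In the testis, basement membrane surrounds the seminiferous tubules, and Leydig cells in the tissue between them are in contact with laminin and type IV collagen.

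On PNP arrays 61.6% ± 1.47 of the spots were well above background, against 62.1% ± 0.240 on control arrays (SD, n = 3 each, exact two-sided permutation p = 0.9). Outlier spots, which were left out, made up 12.3% ± 0.814 (SD, n = 3) on PNP arrays and 7.75% ± 1.27 (SD, n = 3) on control arrays (exact two-sided permutation p = 0.1, the smallest that 3 against 3 can give). The log2 of the 75th percentile on which each array was scaled was 12.27 ± 0.12 on PNP arrays and 12.44 ± 0.056 on control arrays (SD, n = 3 each, exact two-sided permutation p = 0.1), lower on every PNP array than on every control array. All 6 arrays were on 1 slide and were read in 1 scan. By the array positions in the file headers, PNP 2 and PNP 3 lay in row 2 of the slide and the other 4 arrays in row 1. Of the 8 Leydig markers on the array, Star, Nr5a1, Nr2f2 and Pdgfra were above background on 6 arrays, whereas Cyp11a1, the enzyme of the first step of steroid synthesis, and Lhcgr, the luteinising hormone receptor, were above it on no array. Cyp17a1 was above background on 2 PNP arrays and 3 control arrays, and Hsd3b1 on 0 PNP arrays and 1 control array. In bulk RNA, fewer cells of a type and less RNA per cell cannot be told apart.

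TM3 cells gave signal for chains of each kind of laminin subunit and for α and β chains of integrins, in PNP and control arrays alike. Of the 39 members, 23 were well above background on all 6 arrays, 2 on some arrays and 14 on none. The 23 included Itgb1, the β chain shared by most matrix receptors, the laminin receptor chains Itga3, Itga6 and Itga7, the fibronectin receptor chains Itga5 and Itgav, and the collagen receptor chains Itga1, Itga10 and Itga11. The laminin chains Lama2, Lama5, Lamb1, Lamb2 and Lamc1 were also above background on all 6 arrays.

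The 14 members above background on no array were Itga2, a collagen receptor chain, Itga4, Itga8, Itgad, Itgae, Itgax, Itgb2l, Itgb8, Itgbl1, Lama1, Lama3, Lama4, Lamb3 and Lamc3. Itgad, Itgae and Itgax are α chains of leukocyte integrins, Itgbl1 is a secreted protein resembling a β chain and no receptor subunit, and Lama3 and Lamb3 are chains of the laminin that anchors epithelia. With the more lenient flag for a positive and significant signal, 27 members were detected on 6 arrays and 5 on none, so 9 of the 14 had some signal on at least 1 array. Itga4, Itgae, Itgb2l and Lamb3 passed that flag on all 6 arrays. The first probe of Lama4, a chain of vessel and muscle basement membranes, gave scaled log2 signals of -7.52, -6.16 and -7.39 in PNP 1 to 3, against -7.44, -7.81 and -7.91 in controls 1 to 3. All of them lay below the dimmest signal that counted as above background on their own arrays, which ran from -5.66 to -5.33, so no fold is given. The scaled log2 signal is the log2 of the processed signal minus the 75th percentile of that array, so a value of 0 marks a probe at that percentile.

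**Figure D1:**
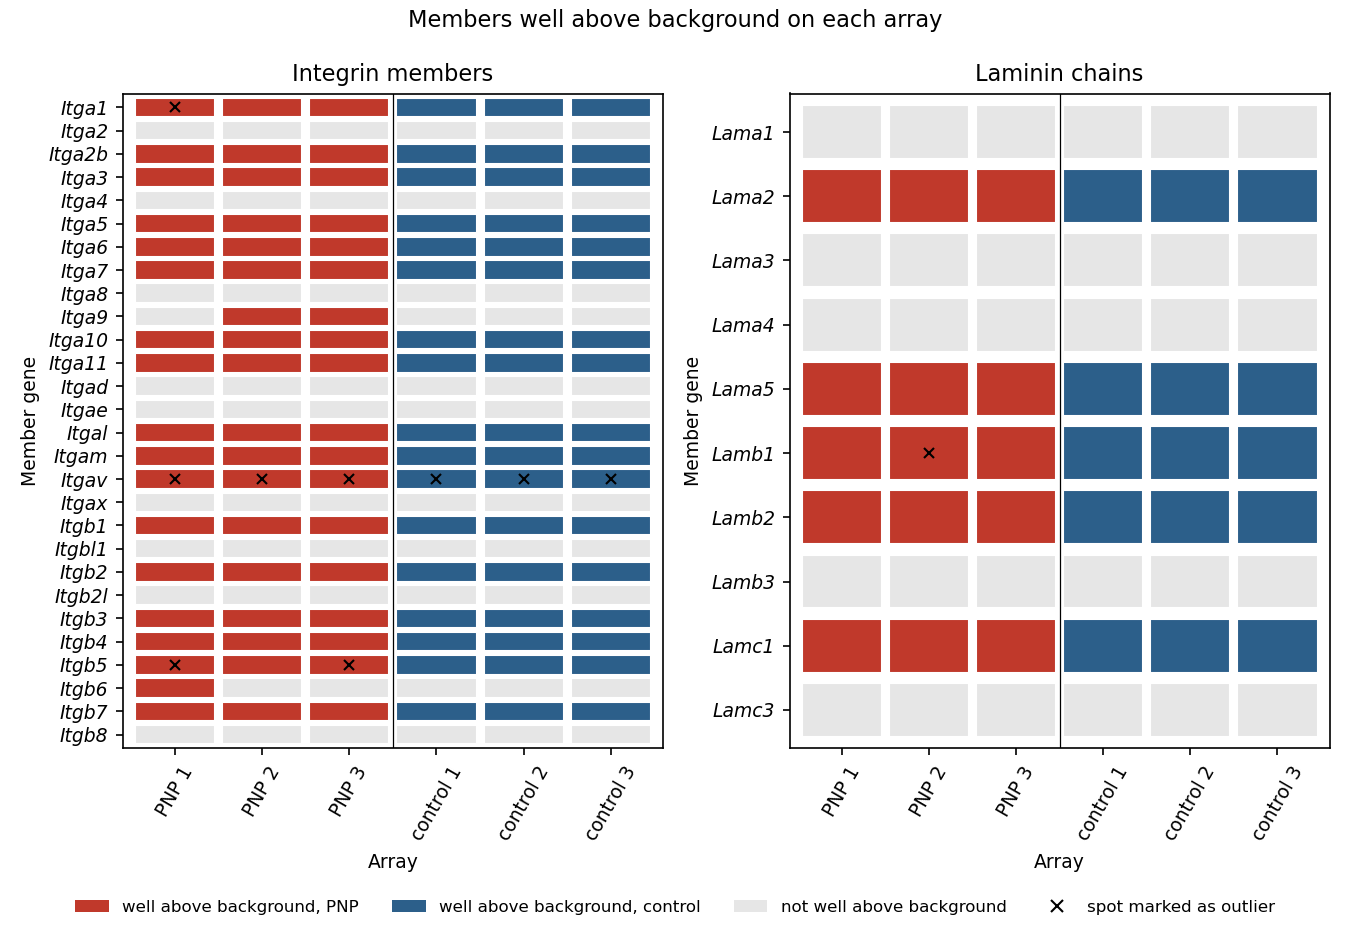
Detection of 38 of the 39 members on each of the 6 arrays (columns, 3 PNP arrays left of 3 control arrays), each row being a gene. The 20 tested members shown and 2 left out for outlier spots were above background on all 6 arrays, 14 were above it on none, and Itga9 and Itgb6 were above it on PNP arrays only.

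The test covered 21 members, 15 integrins and 6 laminins, read by 28 probes that kept enough values. No member passed it. With limma and Benjamini-Hochberg adjustment over 13138 genes, 0 of 21 members had an adjusted p below 0.05 (adjusted p from 0.749 to 0.999), where 0% of all genes did. At an unadjusted p below 0.05 there was 1 member, Itga5, or 4.76% of the members tested, where 6.52% of all genes were at that mark. It was on the lower side, as were 1.49% of all genes, and 0 members were on the higher side, where 5.02% of all genes were. PNP and control values did not overlap in 1 member, Itgb1, or 4.76%, where they did not overlap in 13.4% of all genes. Its PNP values were all above the controls, as in 9.66% of all genes, and 0 members had all PNP values below the controls, where 3.75% of all genes did.

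Differences of the members were small. They ran from -0.34 to 0.26 on the log2 scale, PNP minus control, with a median of 0.097, beside a median of 0.043 over all genes. A change of 2-fold or more either way lay outside the 95% interval in 20 of 21 members and in 97.9% of all genes, and one of 1.5-fold or more in 19 members and in 84.4% of all genes. The PNP mean was the higher one in 16 members and the lower one in 5 (76.2% higher), where it was higher in 63.0% of all genes. That split moved with the scaling of the arrays: 13 of 21 were higher after quantile normalization and 11 of 21 when arrays were scaled on their median. The median difference over all genes moved as well, to 0.010 and -0.018 under these scalings. The share of all genes higher was not computed there. The spread within groups had a median SD of 0.16 over the members and 0.14 over all genes.

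**Figure D2:**
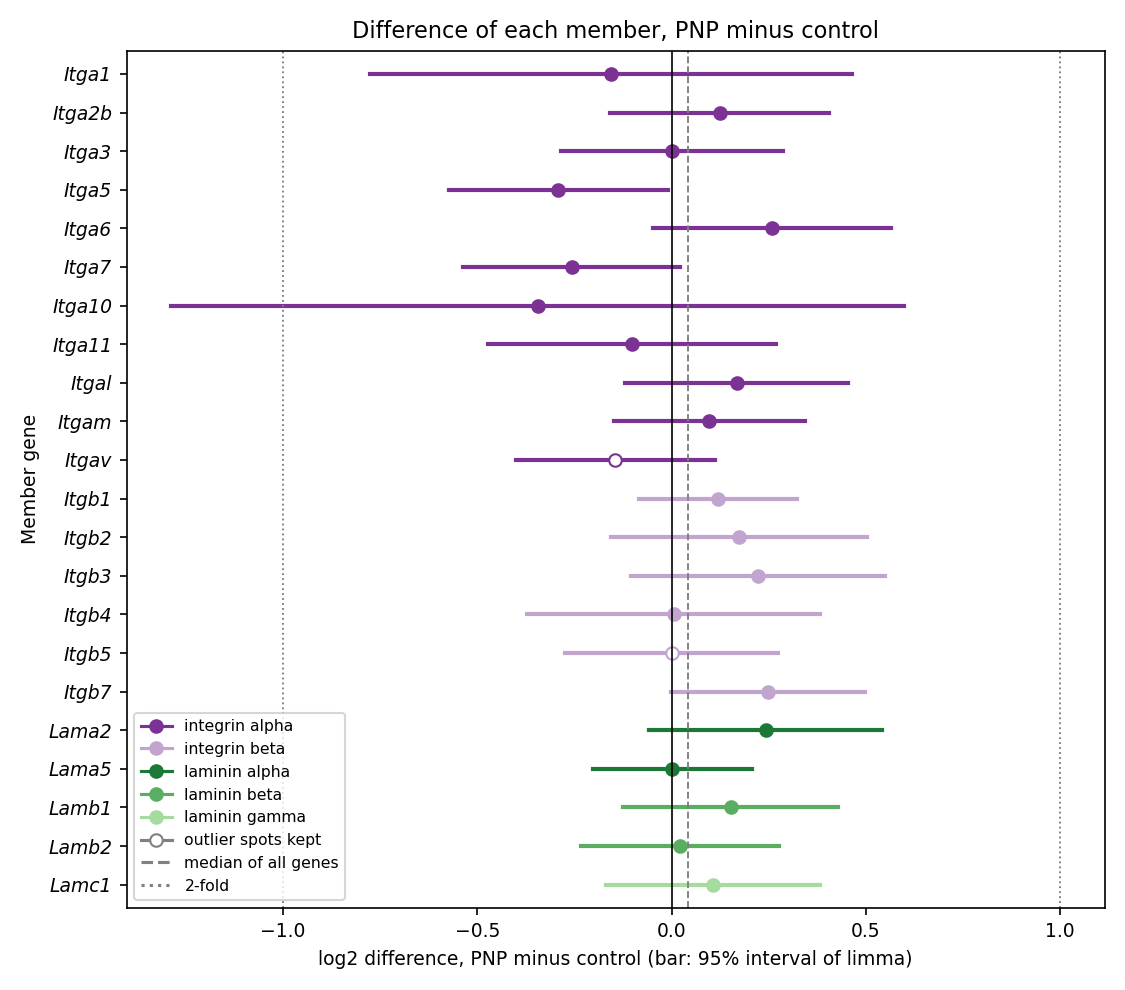
Log2 difference, PNP minus control, of 20 of the 21 tested members (filled points) and of Itgav and Itgb5 with outlier spots kept (open points), with the 95% interval from limma (lines). All intervals but that of Itga5 cross 0, while that of Itga5 runs from -0.57 to -0.0098, and the interval of Itga10 is the widest, from -1.29 to 0.60.

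Among the β chains, Itgb1 had scaled log2 signals of 2.67, 2.68 and 2.65 in PNP 1 to 3, against 2.62, 2.52 and 2.50 in controls 1 to 3. Every PNP value lay above every control value, and the 3 PNP values were close together. The difference was 0.12 (SE 0.089, 95% interval from -0.084 to 0.32), with an adjusted p of 0.900. A second Itgb1 probe kept 2 values in each group, which overlapped, and differed by 0.036 (SE 0.15).

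Itgb7, which pairs with α4 or αE on lymphocytes, had scaled log2 signals of 3.58, 3.49 and 3.28 in PNP 1 to 3, against 3.28, 3.17 and 3.16 in controls 1 to 3. The lowest PNP array and the highest control array were level, and the other 2 PNP arrays were above all controls. The difference was 0.25 (SE 0.11, adjusted p = 0.766). The second Itgb7 probe was far dimmer, so the probes disagreed on the level of the gene. It read -2.15, -2.37 and -2.18 in PNP 1 to 3, against -2.49, -2.17 and -2.81 in controls 1 to 3. That probe differed by 0.26 (SE 0.17) with overlapping groups. Neither of the known partners of Itgb7, Itga4 and Itgae, was well above background on any array, though both passed the more lenient flag on all 6.

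Itgb3, the β chain of the vitronectin receptor and of the platelet fibrinogen receptor, read -2.75, -2.44 and -2.37 in PNP 1 to 3, against -2.52, -2.91 and -2.79 in controls 1 to 3. PNP 1 was as low as the controls, and control 1 was near the other PNP arrays, so the groups overlapped. The difference was 0.22 (SE 0.14, adjusted p = 0.878), and in row 1 of the slide, where PNP 1 is the only PNP array, it was -0.0096. The other Itgb3 probe was above background on no array. Itgb4, the β chain of hemidesmosomes, differed by 0.0052 (SE 0.16), and its sign turned negative under each of the 4 other scalings tried. Of the 12 epithelial markers listed, Itgb4 among them, 5 were above background on 6 arrays and 4 on none. The keratins Krt8, Krt14 and Krt18 were among those 5, and the cadherin Cdh1 and Epcam among those 4. The log2 of that list's summed scaled signal ran from 1.49 to 1.81 on PNP arrays and from 1.42 to 1.75 on control arrays, and the part of epithelial cells in the Itgb4 signal was not tested.

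Itga5, the α chain of the fibronectin receptor, had the smallest p of the members and was lower in PNP cells on average. It read -3.65, -3.48 and -3.71 in PNP 1 to 3, against -3.17, -3.26 and -3.53 in controls 1 to 3. Control 3 lay within the PNP values, while controls 1 and 2 were above all of them. The difference was -0.29 (SE 0.12, 95% interval from -0.57 to -0.0098, unadjusted p = 0.0441, adjusted p = 0.749). Within slide columns it was -0.42 in even columns and -0.13 in odd ones, and it kept its sign under all 19 other settings, from -0.39 to -0.19.

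Itga7, a laminin receptor chain of muscle, read -1.39, -1.44 and -1.68 in PNP 1 to 3, against -1.15, -1.42 and -1.17 in controls 1 to 3. Control 2 lay among the PNP arrays, and the groups overlapped. Its difference was -0.26 (SE 0.12, adjusted p = 0.791), but a second probe of the gene differed by 0.13 (SE 0.13), so the 2 probes disagreed in sign.

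Itga6, another laminin receptor chain, read 1.90, 1.52 and 1.80 in PNP 1 to 3, against 1.66, 1.37 and 1.42 in controls 1 to 3. PNP 2 was below control 1, and the other PNP arrays were above all controls. The difference was 0.26 (SE 0.13, 95% interval from -0.048 to 0.56, adjusted p = 0.811), with 0.48 in even slide columns and -0.022 in odd ones. Itga3, the third laminin receptor chain, read 0.025, -0.20 and -0.31 in PNP 1 to 3, against -0.21, -0.00087 and -0.28 in controls 1 to 3. The groups covered the same range, and the interval of the difference ran from -0.29 to 0.29.

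A dimmer second probe of Itga3 read -4.84, -4.41 and -4.40 in PNP 1 to 3, against -4.74, -5.03 and -5.02 in controls 1 to 3. PNP 1 lay between the controls, and the other PNP arrays were above all of them. It was the only one of the 28 member probes with an unadjusted p below 0.05 when probes were tested one by one, where 6.99% of all 27222 probes were at that mark. Its difference was 0.38 (SE 0.15), with an unadjusted p of 0.0369 and an adjusted p of 0.709 in limma with Benjamini-Hochberg adjustment.

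**Figure D3:**
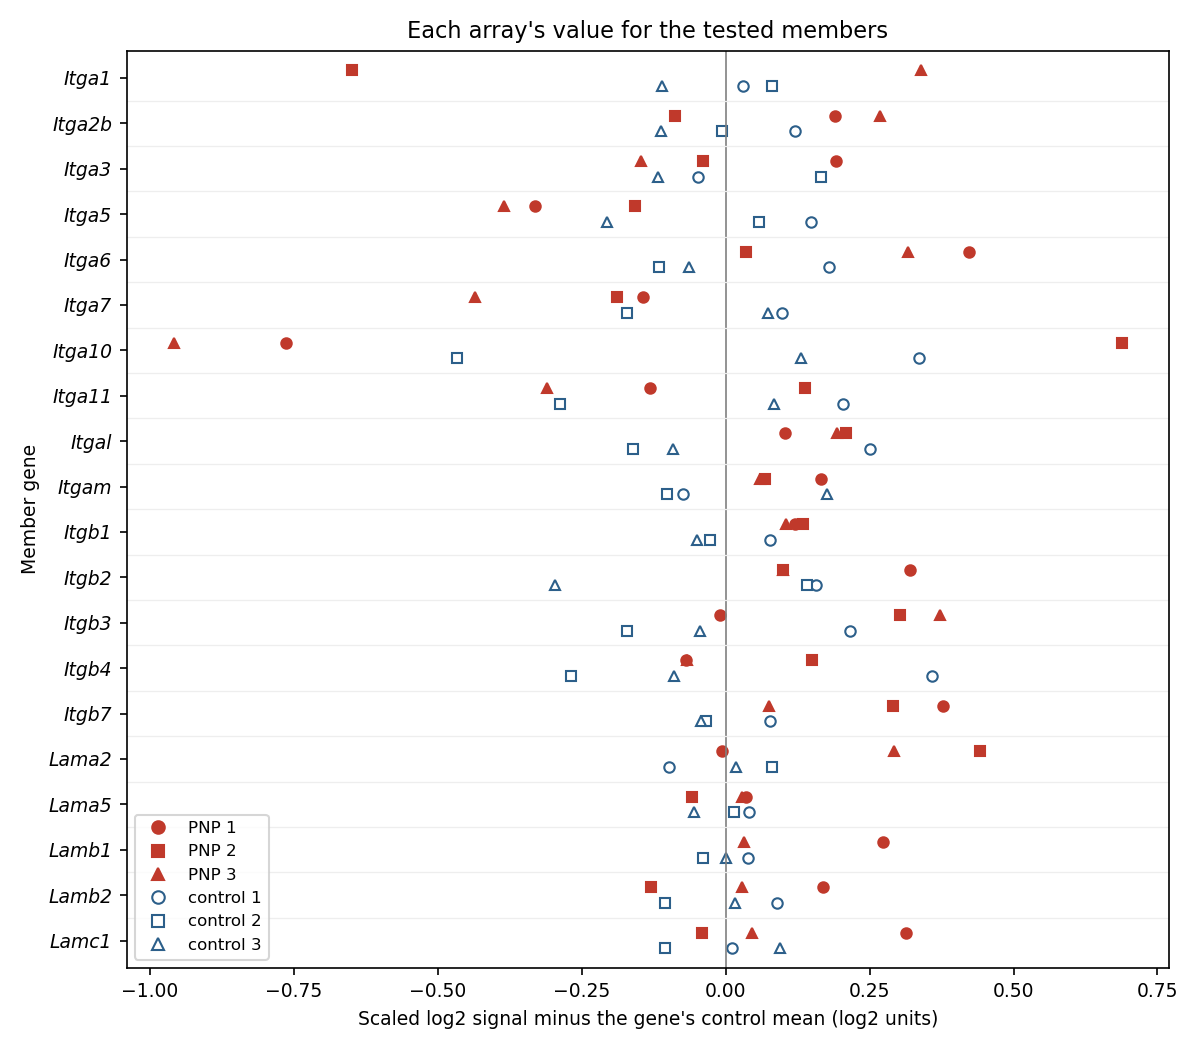
Scaled log2 signal minus the control mean for 20 of the 21 tested members on each array (filled PNP markers drawn above open control markers), 1 marker an array. PNP and control markers overlap in every gene shown but Itgb1.

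Arrays of odd and even slide columns did not overlap in 3 of 21 members, where they did not overlap in 20.4% of all genes. The 3 were collagen receptor chains without a shared order, since Itga1 ran opposite to Itga10 and Itga11. Itga10, a collagen receptor chain of cartilage, read -3.46, -2.01 and -3.65 in PNP 1 to 3, against -2.36, -3.16 and -2.57 in controls 1 to 3. PNP 2, control 1 and control 3, the arrays in odd slide columns, were the 3 highest, and the arrays in even columns were the 3 lowest. The difference was -0.34 (SE 0.41, 95% interval from -1.29 to 0.60, adjusted p = 0.949), and it was 0.030 with odd or even column as a block. It was -0.86 without PNP 2 and -0.038 without PNP 3. The other Itga10 probe was above background on no array.

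Itga11, the collagen receptor chain of fibroblasts, was ordered in the same way. It read -4.58, -4.32 and -4.76 in PNP 1 to 3, against -4.25, -4.74 and -4.37 in controls 1 to 3. The odd-column arrays were again the 3 highest, and the difference of -0.10 (SE 0.16) became 0.030 with column as a block. Itga1, which binds type IV collagen, had no value on PNP 1, read -1.63 and -0.64 in PNP 2 and 3, and read -0.95, -0.90 and -1.09 in controls 1 to 3. The 2 PNP values lay on either side of the controls, with the even-column arrays highest, and the difference was -0.15 (SE 0.26), while its second probe differed by 0.10 (SE 0.20). In RefSeq the Itga1 gene overlaps Pelo and the Itga7 gene overlaps Mettl7b, and the parts of the genes that the probes read are not used here. In 9 of the 20 members with a value in both, the difference had opposite signs in odd and even columns. That share was not computed over all genes, so nothing is drawn from it.

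The αv and β5 chains, which form vitronectin receptors, were above background on all 6 arrays but lost values to outlier spots, Itgav on every array and Itgb5 on PNP 1 and PNP 3. With such spots kept, Itgav read 1.94, 1.87 and 2.10 in PNP 1 to 3, against 2.26, 2.00 and 2.08 in controls 1 to 3. These groups overlapped, and the difference was -0.15 (95% interval from -0.40 to 0.11, adjusted p = 0.916). Itgb5 read 1.23, 0.88 and 1.19 in PNP 1 to 3, against 1.17, 1.09 and 1.02 in controls 1 to 3. PNP arrays were both highest and lowest, and the interval of the difference ran from -0.27 to 0.27.

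Chains of integrins known from blood cells gave signal on all 6 arrays. Itgam, Itgal and Itgb2, of the leukocyte β2 family, differed by 0.097 (SE 0.11), 0.17 (SE 0.12) and 0.17 (SE 0.14), and Itga2b, the platelet fibrinogen receptor chain, by 0.12 (SE 0.12), all with overlapping groups. Without control 3, the lowest array for Itgb2, that gene differed by 0.024. The sign for Itgam turned to -0.050 after quantile normalization. The tested Itgam probe was bright, at 3.46, 3.37 and 3.36 in PNP 1 to 3, against 3.22, 3.20 and 3.47 in controls 1 to 3. A second Itgam probe was above background on no array, so the probes disagreed on the level of the gene.

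Of the 14 leukocyte markers listed, 8 were above background on 6 arrays, these 3 integrins among them, and 5 on none. Beside the 3 integrins, Csf1r, Cd68, Cd14, Lyz2 and Cd3e were above background on 6 arrays. Ptprc, the pan-leukocyte phosphatase CD45, and Adgre1, Fcgr1, Tyrobp and Cx3cr1 of myeloid cells were the 5 on none. The log2 of the list's summed scaled signal ran from 4.27 to 4.55 on PNP arrays and from 4.25 to 4.33 on control arrays. Of the 6 platelet markers, Gp1ba, Gp9 and Pf4 were above background on no array, and Itga2b, Itgb3 and Ppbp on 6. The part of other cells in the signal of these integrins was not tested.

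The laminins had small positive differences, higher in PNP cells in 6 of 6 tested chains, where 63.0% of all genes were higher. When arrays were scaled on their median, 3 of 6 were higher, and the median difference over all genes was then -0.018. The median difference was 0.078, beside 0.043 over all genes, and no adjusted p was below 0.834. A change of 1.5-fold or more lay outside all 6 intervals, and outside those of 84.4% of all genes.

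Of the α chains, Lama2, of muscle and nerve basement membranes, read -4.62, -4.17 and -4.32 in PNP 1 to 3, against -4.71, -4.53 and -4.59 in controls 1 to 3. PNP 1 lay among the controls, and PNP 2 and PNP 3 were above all of them. The difference was 0.24 (SE 0.13, 95% interval from -0.057 to 0.54, adjusted p = 0.834). In row 1 of the slide, with PNP 1 alone against the 3 controls, it was -0.0066. The other Lama2 probe was above background on no array. Lama5, the widespread α chain of adult basement membranes, read 1.68, 1.58 and 1.67 in PNP 1 to 3, against 1.68, 1.66 and 1.59 in controls 1 to 3. Both groups spanned nearly the same values, and the interval of the difference, from -0.20 to 0.21, was among the narrowest of the members.

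Of the β chains, Lamb1 had no value on PNP 2, read 2.94 and 2.70 in PNP 1 and 3, and read 2.70, 2.62 and 2.66 in controls 1 to 3. PNP 1 was the highest array and PNP 3 was level with control 1, so that the groups overlapped, and the difference was 0.15 (SE 0.12, adjusted p = 0.910). Lamb2, which replaces Lamb1 in the glomerulus and at the nerve-muscle junction, read 1.46, 1.16 and 1.32 in PNP 1 to 3, against 1.38, 1.19 and 1.31 in controls 1 to 3. PNP arrays were both highest and lowest, and the difference was 0.022 (SE 0.11).

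Of the γ chains, Lamc1, present in most laminins, read 1.94, 1.59 and 1.68 in PNP 1 to 3, against 1.64, 1.53 and 1.73 in controls 1 to 3. PNP 1 stood above the rest, the other arrays overlapped, and the difference was 0.11 (SE 0.12), or 0.0021 without PNP 1. A second Lamc1 probe differed by 0.65 (SE 0.62), with control 3 at -1.47 and the 4 other arrays with a value between 0.56 and 0.75, and the mean of both probes by 0.36.

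Of the 2 members above background on some arrays only, Itga9, the α chain that binds tenascin and VCAM-1 with β1, was so on PNP 2 and PNP 3. It read -6.83, -4.02 and -4.00 in PNP 1 to 3, against -7.67, -7.74 and -7.22 in controls 1 to 3. PNP 1 was close to the controls, and the other PNP arrays were far above them. PNP 1 was below the dimmest signal above background on that array (-5.33), so no fold is given for the mean of all 3 PNP arrays. On PNP 2 and PNP 3, picked because the probe was bright there, the mean signal was at least 2.94-fold higher than the control. That bound uses, for the control arrays, the lowest signal that counted as above background there. The probe was not tested, since it was above background on all 3 arrays of neither group. A second Itga9 probe was above background on no array.

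With PNP 1 left out, Itga9 entered the test through the 2 PNP arrays on which it was bright. It was then the only member called by limma, among 23 genes called of 12583. A probe that enters in this way had to differ, and since the controls were below background, the size of the difference is given only by the bound of at least 2.94-fold. PNP 2 and PNP 3 were also the only arrays in row 2 of the slide, so treatment and slide row cannot be told apart there. On the whole array, 202 of 56605 probes were above background on 2 PNP arrays and no control array, 167 of them on PNP 2 and PNP 3, and 208 on 2 control arrays and no PNP array. Itgb6, the β chain of an epithelial receptor that activates TGF-β, was above background on PNP 1 alone. It read -4.64, -7.74 and -7.71 in PNP 1 to 3, against -7.78, -7.82 and -7.87 in controls 1 to 3. Only PNP 1 stood apart, and the other Itgb6 probe was above background on no array. Among all probes, 1260 were above background on 1 PNP array and no control array, against 803 on 1 control array and no PNP array.

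**Figure D4:**
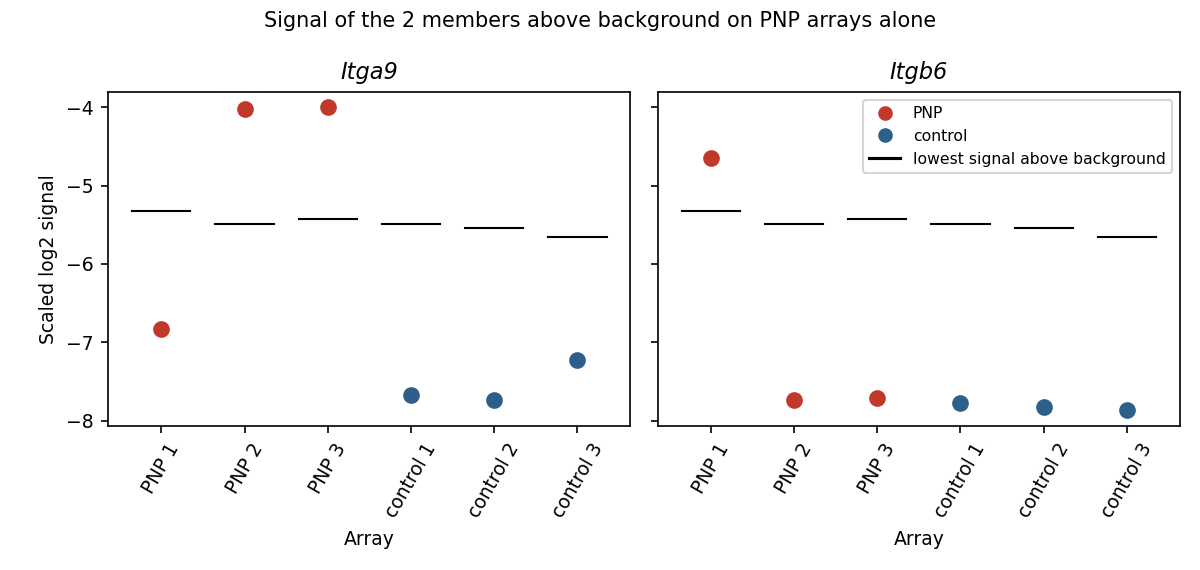
Scaled log2 signal of the Itga9 and Itgb6 probes on each array (PNP points left of control points), with the dimmest signal above background of that array as a line. Itga9 is above the line on PNP 2 and PNP 3, and Itgb6 on PNP 1.

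The genes that work with integrins and laminins were read alongside the members. Of 38 adaptors that link integrins to actin and signalling at adhesion sites, 34 were above background on 6 arrays and 28 were tested. None of the 28 passed the test, and 0 had an unadjusted p below 0.05, where 6.52% of all genes did. The PNP mean was higher in 18 and lower in 10, where it was higher in 63.0% of all genes, with a median difference of 0.055. The smallest p-values were those of Rsu1, a partner of the ILK-PINCH-parvin complex, at 0.29 (SE 0.13, adjusted p = 0.766, with 2 PNP values), and Git2, a scaffold that binds paxillin, at 0.22 (SE 0.11). On the lower side were Lpp, a LIM protein of adhesion sites, at -0.15 (SE 0.13), and Ptk2b, a kinase related to FAK, at -0.11 (SE 0.12).

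Of 29 basement membrane partners of laminins, 22 were tested and 0 passed, with a higher PNP mean in 14, a lower one in 8 and a median difference of 0.072. Ntn1, a laminin-related guidance protein, differed by 0.24 (SE 0.12), and Col4a4, a chain of type IV collagen, by 0.38 (SE 0.23). On control 1, Col4a4 read -5.72, below the dimmest signal above background there (-5.49). Its probe thus entered the test through the PNP arrays alone. Such an entry favours a higher PNP mean, so nothing is drawn from the difference. Col4a6, another chain of that collagen, differed by -0.38 (SE 0.20).

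Of 25 other integrin ligands, 11 were tested and 0 passed, with a higher PNP mean in 4, a lower one in 7 and a median difference of -0.019. Svep1, a ligand of α9β1, differed by 0.19 (SE 0.15), and Adam15 by 0.093 (SE 0.10). Icam2, a ligand of β2 integrins, differed by -0.22 (SE 0.12), and Ccn1, a matrix-associated ligand of αv integrins, by -0.19 (SE 0.15). Neither the adaptors nor the partners nor the ligands thus held a gene past the threshold in limma with Benjamini-Hochberg adjustment, where 0% of all genes were.

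**Figure D5:**
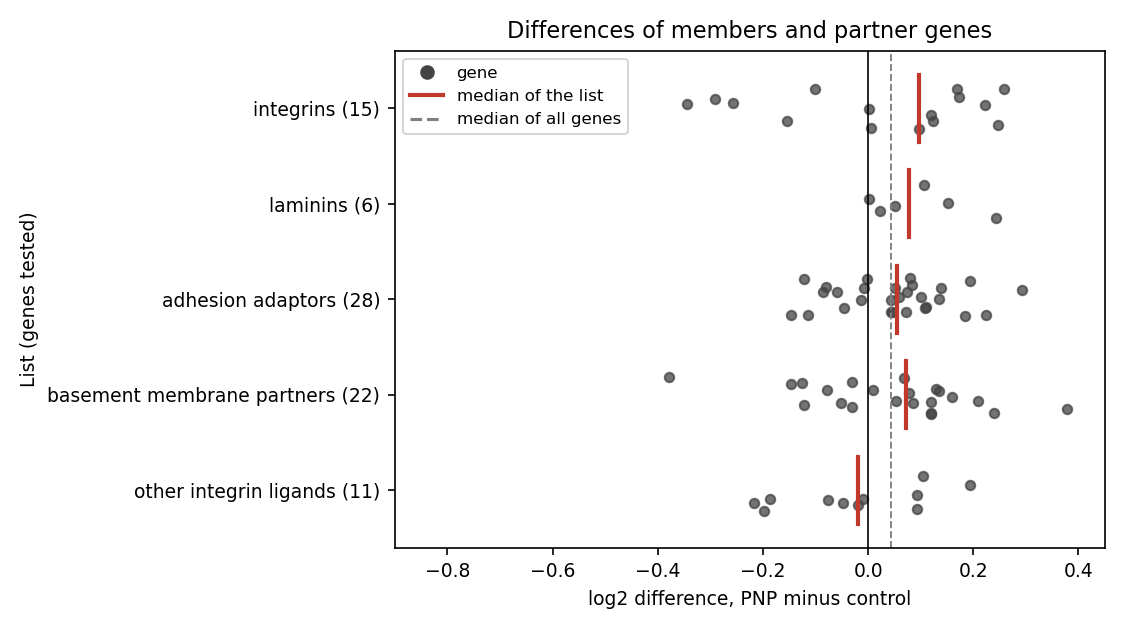
Log2 difference, PNP minus control, of each tested gene (points) for integrins, laminins and the 3 partner lists, with each list's median (bar) and the median of all genes (dashed line). The 5 list medians lie between -0.019 and 0.097, and that of all genes at 0.043.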

How the data were processed

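Total RNA from 6 samples of TM3 cells, 3 PNP and 3 control, was hybridised to 1-colour Agilent arrays, and samples were grouped by the dose in the labels. The deposited scanner files give intensity values. Feature Extraction 11.5.1.1 made them per the file headers, and the submitters' processing notes give version 10.7. Per the file headers, local background and a spatial trend were subtracted, a multiplicative trend was corrected within the array and low values were replaced by a surrogate, so differences of dim probes are understated. The labels name the dye Cy3 and the files hold red-channel columns, and which dye they stand for is not settled. The authors also deposited normalized values, which are log2 values, uncentred and in the direction of the scanner signal (r from 0.9996 to 1.00 with the same array, each column's median 8.27). The steps that led to them are not given in the sources used here. Flags for signals well above background and for outliers are 0 or 1 per spot, per the file headers.

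Computations used R 4.3.3 and limma 3.58.1. The measure was the log2 processed signal after subtracting, per array, its 75th percentile among non-control spots. Outlier spots were left out, spots of 1 probe averaged, and a probe entered the test when all 3 arrays of 1 group or both had it well above background and each group kept 2 or more values. Probes were named through their accessions in a RefSeq list of assembly GRCm38.p6 (33767 of 56605 probes named). The array was designed on mm9, so no coordinates are given. The brightest tested probe stood for its gene. Genes were tested with lmFit and eBayes, two-sided, with Benjamini-Hochberg adjustment over 13138 genes at 0.05, and 27222 probes also one by one. Precision is limited by the number of arrays: the median half-width of a member's 95% interval was 0.28 on the log2 scale. The procedure was tested on simulated data.

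The scanner files have no mean signal, so the normexp alternative used the median signal and median background, a departure from the planned form. The members and gene lists were chosen with earlier results of these data known. Full values are given for the 5 members of smallest p in each direction, for detected members not tested, for the members Itgb1, Itgav, Itga5, Itga6, Itga3, Itgb3, Itgb5, Lama4, Lama5, Lamb1, Lamb2 and Lamc1, and of each partner list the 2 of smallest p in each direction are named. Alternatives covered background correction, scaling, the dim-probe filter, outlier spots, the choice of probe, blocks for replicate number, slide column and slide row, and each array left out. The values of 1 member and 1 partner gene are not reported here, though counts and medians include them.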

Additional observations from a re-analysis of the deposited data

Results flagged for a closer look

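The tests left out 2 members with signal above background on PNP arrays and on no control array. Itga9 was above background on 2 PNP arrays and 0 control arrays. The bound of at least 2.94-fold holds only for PNP 2 and PNP 3, the arrays in row 2 of the slide. Itgb6 was above background on 1 PNP array, PNP 1, and 0 control arrays, and its PNP mean of -6.69 lay below the dimmest signal above background, so it has no fold.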

How the results depend on the processing

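None of the 21 tested members was called by limma under any of the 19 other settings, with 0 members past the threshold each time except without PNP replicate 1, where Itga9, not tested in the main setting, gave 1 member. Probes were tested one by one under 18 of these settings, with 0 member probes past the threshold except for 1, of Itga9, without PNP replicate 1. Leaving out each array in turn therefore gave from 0 to 1. Itga9 entered there only through the 2 PNP arrays on which it was bright, so nothing is drawn from its p. Under the other settings the smallest adjusted p of a member was 0.215 or higher. Over all genes the counts were 23 without PNP replicate 1, from 0 to 6 without any other array, 1 with slide column as a block, 1 with a trended and robust prior, and 0 otherwise. At an unadjusted p below 0.05 there were from 0 to 3 members. With the replicate number as a block there were 0 members past the threshold and a smallest adjusted p of 0.984, and the block changed no other call. Same-numbered samples did not deviate together (r of -0.31, -0.22 and -0.026 across 11110 genes, which are not independent replicates). The highest r with a control of another number was 0.24, 0.27 and 0.037. Whether same-numbered samples share more than a number is not in the labels, and these correlations cannot settle it. Scaling on the array median brought the median difference of the members to 0.037 and that over all genes to -0.018, and the median over all genes was 0.104 with slide row as a block.

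Signs turned in some setting for members near 0 and far from it, without a call in any case. Scaling on the median gave -0.059 for Itga3, -0.055 for Itgb4, -0.059 for Lama5 and -0.038 for Lamb2. Scaling on the 75th percentile of probes above background on all arrays gave -0.011 for Itga3, -0.0069 for Itgb4 and -0.011 for Lama5. Quantile normalization gave -0.050 for Itgam, -0.041 for Itgb4 and -0.018 for Lama5, and the authors' deposited normalized values gave -0.043 for Itgam, -0.041 for Itgb4 and -0.018 for Lama5. Normexp gave -0.031 for Itga3, -0.033 for Itgb4 and -0.012 for Lama5. Slide column as a block gave 0.030 for Itga10, 0.030 for Itga11, -0.050 for Itga3 and -0.017 for Lama5. Slide row as a block leaves PNP 1 alone against the 3 controls and gave -0.0096 for Itgb3, -0.068 for Itgb4 and -0.0066 for Lama2. Itga1 was 0.0014 with outlier spots kept and 0.035 as the mean of its probes. With each array left out in turn, values ran from -0.21 to 0.32 for Itga1 (positive without PNP 2), from -0.25 to 0.0023 for Itga11, from -0.094 to 0.084 for Itga3, from -0.13 to 0.18 for Itgb4, from -0.026 to 0.031 for Lama5 and from -0.051 to 0.099 for Lamb2. The cause was not tested.

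Precision was limited by the 3 arrays a group, and for the 14 members above background on no array the signal gave no measure of a difference.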
